A study of Mus musculus with 81 samples.

Results

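The antioxidant set described here comprised 10 genes, Sod1, Bach1, Sod2, Cat, Gpx1, Gpx4, Prdx2, Txnrd1, Nfe2l2 and Hmox1, among the 57010 genes of the deposited hippocampal count matrices. They were chosen by name, as the superoxide dismutases, the main peroxide-removing enzymes and the regulators that control them, and were matched by gene identifier to a mouse gene annotation. RNA was measured in 81 libraries of CA1 pyramidal neurons (CA1 PNs), CA3 pyramidal neurons (CA3 PNs) and dentate gyrus granule cells (DGCs), cut by laser capture microdissection (LCM) from Nissl-stained rostral hippocampus of male mice at about 6 months of age. The mice were trisomic Ts65Dn (Ts) or disomic (2N) offspring of Ts65Dn dams and C57Bl/6J Eicher × C3H/HeSnJ F1 sires. The dams received normal choline (ChN, 1.1 g/kg choline chloride) or a choline-supplemented diet (ChP, 5.0 g/kg) until weaning, after which all offspring ate the normal diet. Each library pooled the captured cells of 1 population of 1 mouse. In CA1 PNs there were 6 2N and 5 Ts libraries under ChN and 7 and 9 under ChP. CA3 PNs gave 6 and 6 under ChN and 7 and 7 under ChP, and DGCs gave 6 and 6 and 7 and 9. Ts mice also carry an extra copy of a proximal stretch of chromosome 17 that has no counterpart on the human chromosome of Down syndrome. The CA3 library of mouse 15-145 carried a Ts label while the other libraries of that mouse were 2N, and it was counted as 2N. Expected counts summed to 625249 to 4744036 per library under ChN and 358355 to 2559173 under ChP.

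Superoxide dismutases turn superoxide into hydrogen peroxide, which catalase, glutathione peroxidases and peroxiredoxins then remove. Sod1 is the copper and zinc enzyme of the cytosol, Sod2 the manganese enzyme of mitochondria, and Cat the catalase of peroxisomes. Gpx1 reduces soluble peroxides and Gpx4 reduces lipid peroxides at the expense of glutathione, while Prdx2 is a cytosolic peroxiredoxin that is recharged through thioredoxin and the reductase Txnrd1. Nfe2l2 encodes Nrf2, which activates many genes of this defence through antioxidant response elements, and Bach1 is a heme-regulated repressor that competes for such elements, with the heme oxygenase gene Hmox1 as its best known target. A higher dose of Sod1 without a matching rise of the peroxide-removing enzymes is a long-standing question in Down syndrome research, and the comparison of Ts with 2N neurons addresses it at the level of RNA.

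Sod1 (ENSMUSG00000022982) lies at chr16:90017408-90027657 on the plus strand of GRCm39 and Bach1 (ENSMUSG00000025612) at chr16:87495782-87530234 on the same strand. Both fall in the distal chromosome 16 segment that is present in 3 copies in Ts and 2 in 2N mice, for which a rise in proportion to copies is an LFC (log2 fold change) of 0.585. The other 8 genes lie outside it, Sod2 at chr17:13224095-13259591, Cat at chr2:103284194-103316185, Gpx1 at chr9:108216102-108217546, Gpx4 at chr10:79883000-79892273, Prdx2 at chr8:85693354-85702350, Txnrd1 at chr10:82669785-82733546, Nfe2l2 at chr2:75504739-75534985 and Hmox1 at chr8:75820241-75827217. Sod1 overlaps the antisense gene Scaf4, Prdx2 overlaps the antisense genes Rnaseh2a and Junb, Txnrd1 overlaps Eid3 on the same strand, and Gpx4 and Prdx2 have annotated pseudogene copies. The strand setting of the counting was not given in the sources used here, so reads shared with these neighbours or copies cannot be told apart.

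Gpx1, Gpx4 and Txnrd1 are selenoproteins, in which a TGA codon is read as selenocysteine. The codons are shown because they set these 3 enzymes apart from the other members. They were found in the annotated coding sequences (Gencode vM39, GRCm39), and each line gives the surrounding coding strand with the TGA in capitals. In Gpx1 it is codon 47 of 201 at chr9:108216650-108216652, in Gpx4 codon 73 of 197 at chr10:79890571-79890573 and in Txnrd1 codon 498 of 499 at chr10:82731871-82731873.
Gpx1: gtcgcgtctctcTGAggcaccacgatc
Gpx4: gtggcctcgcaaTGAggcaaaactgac
Txnrd1: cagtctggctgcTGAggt

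The core letters of the antioxidant response element, TGACNNNGC, were searched on both strands in RefSeq promoter windows (GRCm38.p6, 250 bases before to 50 after each start), since Nrf2 and Bach1 both act on that element. The letters were present in 12.4% of 32851 windows and in 14.0% of 27025 genes. Of the 9 members with a window, 3 held them, each once and on the minus strand of the genome, and Hmox1 had no entry. The match lay 56 to 48 bases before the start of Sod1 (chr16:90220698-90220722), 92 to 84 bases before 1 of 3 annotated starts of Txnrd1 (chr10:82859106-82859130) and 240 to 232 bases before the start of Nfe2l2 (chr2:75704887-75704911). The coordinates span the whole printed sequence, in which the capitals mark the matched letters.
Sod1: cctgagtcTGACCACGCccaccttg
Txnrd1: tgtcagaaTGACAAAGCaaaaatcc
Nfe2l2: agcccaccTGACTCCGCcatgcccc
A fully spelled-out Maf-type form, TGACTCAGC, which is in 0.5% of windows, was in no member's window. These matches describe the windows and do not show that a factor binds there.

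Before the comparisons, the libraries were checked against their labels. The summed level of the defining CA3 markers was 569 to 767 counts per 1000000 (CPM) in CA3 libraries and that of the dentate markers 1590 to 2200 CPM in DGC libraries. In 6 of the 27 CA1 libraries the CA2 markers, at 1108 to 1773 CPM, summed to more than the CA1 markers, at 54.2 to 774.8 CPM. These were 2N mice 17-21 (ChN), 15-336 and 16-90 (ChP) and Ts mice 16-357 (ChN), 15-199 and 16-272 (ChP). The CA3 markers in these libraries went up to 633.9 CPM (16-272, with CA1 markers at 54.2), 552.2 (17-21) and 537.0 (15-336), the first within the range of the CA3 libraries. Over 51 triplicated genes other than Sod1 and Bach1, the CA1 library of 2N mouse 17-154 had a mean of 6.23 on the log2 CPM scale, within the Ts range of 6.03 to 6.30, although the CA3 and DGC libraries of this mouse were the lowest of their 2N groups for Sod1. The CA3 library of mouse 15-145 had a mean of 5.68, above the 5.41 to 5.59 of the 5 other 2N ChN CA3 libraries and below the Ts range of 6.11 to 6.16. Members whose call changed without these libraries are given with both values, or are named where they could then not be tested.

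In 2N mice Sod1 was the most abundant member in every population, and Bach1, Hmox1 and Nfe2l2 were the least abundant. Levels of different genes were compared as TPM (transcripts per 1000000), which takes length into account. In ChN CA1 PNs the median of Sod1 was 136.5 TPM (88.4 to 301.3, 6 libraries), in CA3 PNs 233.8 TPM (97.73 to 258.0) and in DGCs 160.1 TPM (124.4 to 212.5). Sod2 had medians of 94.8, 129.0 and 70.51 TPM in the same order, and Prdx2 77.84, 125.6 and 89.34 TPM. The ranges of these 3 genes overlapped in CA1 and CA3 PNs, so their neighbours in the order were within the spread between libraries, whereas in DGCs the lowest Sod1 value (124.4 TPM) was above the highest Sod2 value (94.82 TPM), while Prdx2, the next in order, reached 127.0 TPM and overlapped Sod1.

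Gpx4 followed with medians of 53.45, 82.53 and 45.12 TPM in CA1 PNs, CA3 PNs and DGCs, and it ranked below Sod1, Sod2 and Prdx2 and above the 6 others in all 12 groups of population, genotype and diet. Txnrd1 had 18.91, 21.02 and 39.42 TPM, Gpx1 18.61, 41.0 and 16.37 TPM, and Cat 7.755, 23.64 and 15.53 TPM. Cat ranked above Txnrd1 in the 4 CA3 groups and below it in the 8 others. Bach1 had medians of 1.0, 1.635 and 6.625 TPM in that order, Hmox1 0.555, 1.8 and 3.565 TPM, and Nfe2l2 0.485, 0.46 and 1.76 TPM. Nfe2l2 was last in all 12 groups. Expected counts of Sod1 ran from 33 to 486 per library, those of Bach1 from 0 to 59, those of Nfe2l2 from 0 to 24 and those of Hmox1 from 0 to 13, which limited what could be seen for the last 3. In captured tissue, fewer cells of a type and less RNA per cell cannot be told apart.

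**Figure D1:**
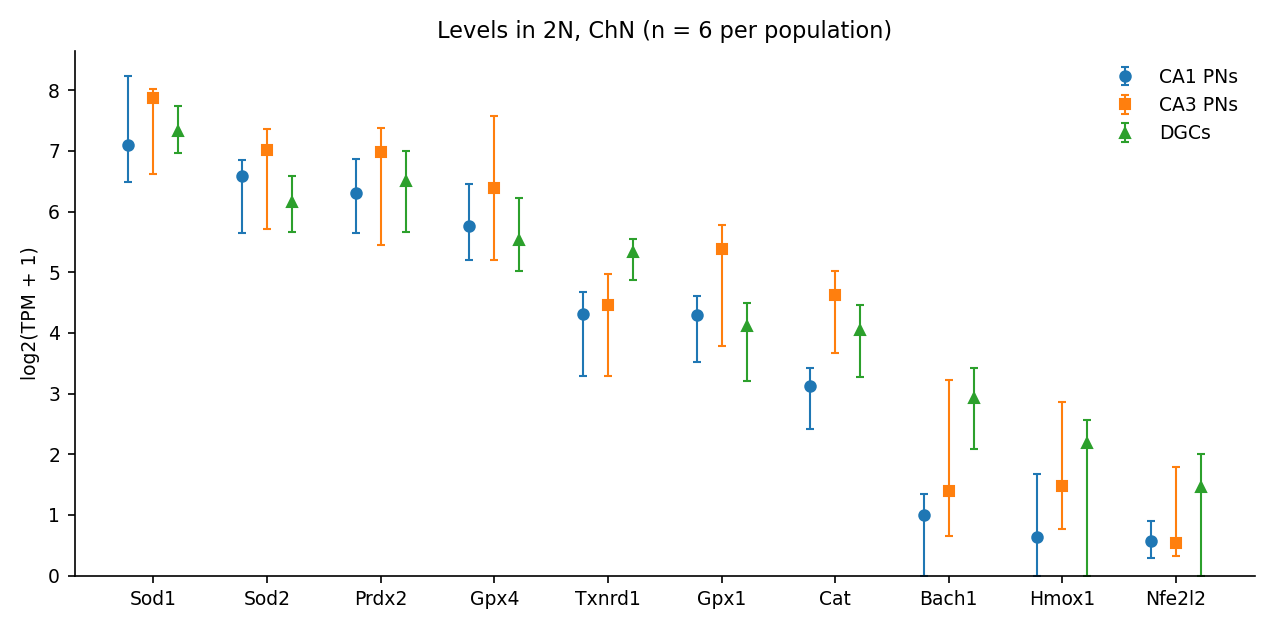
Level of the 10 genes in 2N ChN libraries as log2(TPM + 1), for CA1 PNs, CA3 PNs and DGCs, with the point at the median and the line from the lowest to the highest of 6 libraries. Sod1 has the highest median in each population, and Bach1, Hmox1 and Nfe2l2 lie near the bottom, with Bach1 highest in DGCs at 6.625 TPM.

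Sod1 was higher in Ts than in 2N neurons of every population, by 1.31-fold to 1.63-fold. Sod1 rose in CA3 PNs and DGCs under both diets, with adjusted p under 0.05 (edgeR's quasi-likelihood test with Benjamini-Hochberg adjustment over all genes tested). In CA1 PNs it was a DEG, which following the study meant an unadjusted p under 0.05, but it did not pass the adjustment under either diet. The same gene between libraries was compared in CPM scaled by TMM over all 81 libraries.

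In DGCs of ChN mice, Sod1 in the 6 2N libraries ran from 67.44 CPM through a median of 74.99 to 85.7, and in the 6 Ts libraries from 109.1 through 124.8 to 140.1. The groups did not overlap. The LFC was 0.71 (SE 0.10, adjusted p = 4.15e-06), with a 95% interval of 0.51 to 0.91. Under ChP, 7 2N libraries ran from 63.59 through 80.82 to 83.87 CPM and 9 Ts libraries from 102.0 through 118.0 to 144.8. Again every Ts library was above every 2N library, and the LFC was 0.65 (SE 0.10, adjusted p = 9.06e-06, interval 0.45 to 0.85). Both intervals contained 0.585.

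In CA3 PNs of ChN mice, Sod1 in 2N ran from 91.05 through 107.5 to 117.6 CPM and in Ts from 138.1 through 142.0 to 153.9. These groups also did not overlap, with means of 106.2 ± 8.64 and 143.8 ± 5.76 CPM (SD). The LFC was 0.43 (SE 0.086, adjusted p = 0.00267, interval 0.26 to 0.61). When the CA3 library of mouse 15-145 was put under its own Ts label, the LFC was 0.41 and the adjusted p was 0.0586. Under ChP, 2N ran from 89.61 through 109.0 to 126.4 CPM and Ts from 125.2 through 156.1 to 185.5, and 6 of 7 Ts libraries were above every 2N library. The LFC was 0.53 (SE 0.092, adjusted p = 0.000647, interval 0.34 to 0.71).

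In CA1 PNs of ChN mice, Sod1 in 2N ran from 75.8 through 83.5 to 152.7 CPM, and the 5 Ts libraries had 107.8, 127.4, 129.3, 132.7 and 135.8. All 5 Ts libraries were above 5 of the 6 2N libraries, and all were below the 2N library of mouse 17-154 at 152.7 CPM, the library whose other triplicated genes were also at the Ts level. The LFC was 0.39 (SE 0.17, unadjusted p = 0.0334, adjusted p = 1, interval 0.034 to 0.75). Without the library of 17-154 it was 0.60 (unadjusted p = 0.000239, adjusted p = 0.246), and without the 2 CA2-rich libraries of this comparison it was 0.40 (unadjusted p = 0.0243). The unadjusted call was lost on leaving out Ts mouse 16-490 (0.38, unadjusted p = 0.0563), 17-157 (0.39, unadjusted p = 0.0546) or 17-173 (0.39, unadjusted p = 0.0561), or 2N mouse 17-172 (0.35, unadjusted p = 0.0651), 17-21 (0.35, unadjusted p = 0.0531) or 17-56 (0.35, unadjusted p = 0.063), edgeR's quasi-likelihood test in each case.

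In CA1 PNs of ChP mice, Sod1 in 2N ran from 63.75 through 83.89 to 104.1 CPM and in Ts from 97.38 through 124.5 to 178.2, and 8 of 9 Ts libraries were above every 2N library. The LFC was 0.64 (SE 0.13, unadjusted p = 4.35e-05, adjusted p = 0.0522, interval 0.37 to 0.91). Its adjusted p lay on both sides of the threshold in other fits, at 0.0138 with DESeq2 and 0.138 with limma-voom, at 0.00742 without the 4 CA2-rich libraries, and from 0.0159 to 0.244 when 1 library was left out at a time. The size of the Sod1 difference in CA1 PNs, 0.56 to 0.69 over those omissions, moved less than its call.

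**Figure D2:**
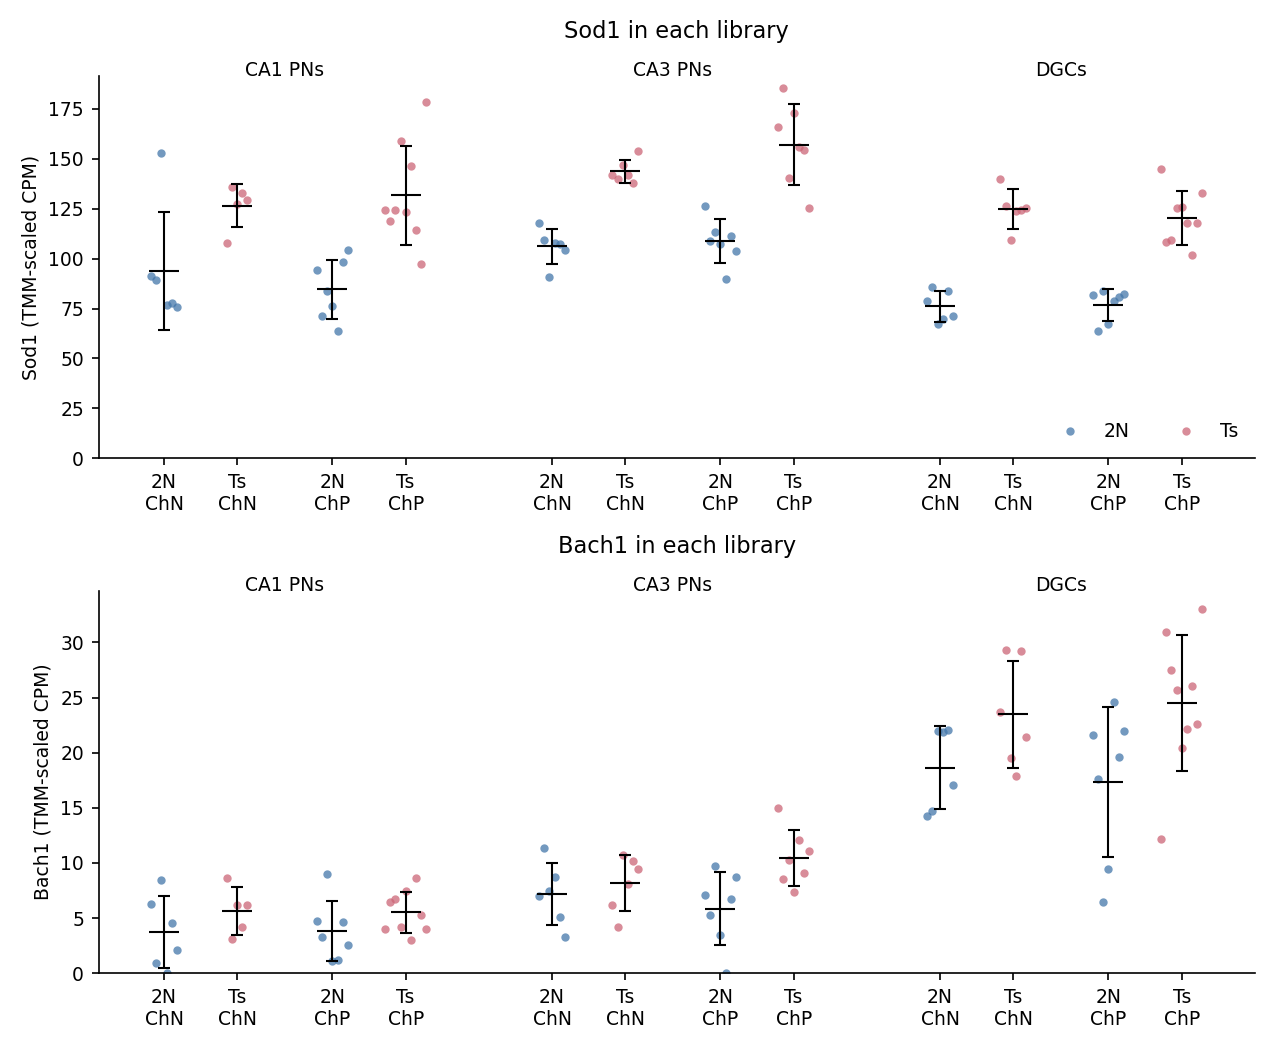
CPM of Sod1 (top) and Bach1 (bottom) in each of the 81 libraries by population, diet and genotype, 2N in blue and Ts in red, with black marks at the mean ± SD. For Sod1 the Ts and 2N points separate fully in DGCs under both diets and in ChN CA3 PNs, while 1 CA1 2N ChN library stands at 152.7 CPM, and for Bach1 the groups overlap throughout.

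The number of members called was small, and Sod1 was the member that passed the adjustment. Under ChN, DEGs among the members were 2 of 9 tested in CA1 PNs (Sod1 and Gpx1), 1 of 10 in CA3 PNs (Sod1) and 1 of 10 in DGCs (Sod1). Over all genes tested, 3.77%, 9.2% and 8.5% were DEGs in the same order. Under ChP they were 2 of 10 in CA1 PNs (Sod1 and, lower in Ts, Nfe2l2), 3 of 10 in CA3 PNs (Sod1, Bach1 and Gpx4) and 2 of 10 in DGCs (Sod1 and Bach1), against 3.6%, 4.99% and 7.6% of all genes. After adjustment 1 member remained in CA3 PNs and 1 in DGCs under each diet and none in CA1 PNs under either. The corresponding shares of all genes were 0.662% and 0.249% for CA3 PNs, 0.588% and 0.445% for DGCs, and 0.00814% and 0.049% for CA1 PNs, with ChN first.

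Bach1, the repressor of Hmox1, had LFCs between 0.16 and 0.74 in Ts against 2N, and in no comparison did it pass the adjustment. It was a DEG in CA3 PNs and DGCs of ChP mice. In ChP CA3 PNs, 2N libraries ran from 0 (mouse 15-336) through 6.723 to 9.711 CPM and Ts libraries from 7.327 through 10.24 to 15.0. All 7 Ts libraries were above the 2N median and 4 were above every 2N library. The LFC was 0.74 (SE 0.31, unadjusted p = 0.0225, adjusted p = 0.837, interval 0.11 to 1.36), and the call was lost without 2N mouse 15-334 (0.62, unadjusted p = 0.0578) or Ts mouse 14-90 (0.63, unadjusted p = 0.0621).

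In DGCs, where Bach1 was most abundant, ChN 2N libraries ran from 14.23 through 19.48 to 22.05 CPM and Ts libraries from 17.93 through 22.56 to 29.29. Only 3 of 6 Ts libraries were above every 2N library, and the LFC was 0.33 (SE 0.20, interval reaching below 0). Under ChP, 2N ran from 6.451 through 19.59 to 24.56 CPM and Ts from 12.15 through 25.67 to 33.05, with 5 of 9 Ts libraries above every 2N library. The LFC was 0.47 (SE 0.21, unadjusted p = 0.0266, adjusted p = 0.539, interval 0.056 to 0.88). That call was lost without 2N mouse 15-296 (0.38, unadjusted p = 0.0676) or 15-334 (0.34, unadjusted p = 0.113) or Ts mouse 17-03 (0.39, unadjusted p = 0.0741).

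In CA1 PNs Bach1 stood at a few reads per library. Under ChN, 2N ran from 0 (mouse 17-172) through 3.33 to 8.443 CPM, and Ts had 3.072, 4.148, 6.151, 6.158 and 8.652 CPM. The highest 2N value was again that of mouse 17-154. The LFC was 0.49 (SE 0.55) under ChN and 0.59 (SE 0.39) under ChP, and both intervals reached below 0. Under ChP the call appeared without 2N mouse 15-296 (0.88, unadjusted p = 0.0372). In ChN CA3 PNs the LFC was 0.16 (SE 0.30), with 2N from 3.266 through 7.224 to 11.38 CPM and Ts from 4.174 through 8.79 to 10.74. None of the 6 intervals of Bach1 excluded 0.585.

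Sod2, the mitochondrial dismutase, was close in both genotypes. Its LFCs ran from −0.055 to 0.14 with SEs of 0.078 to 0.12, and it was called in none of the 6 comparisons. In ChN CA3 PNs, for example, 2N libraries ran from 179.6 through 190.0 to 192.7 CPM and Ts libraries from 157.2 through 186.5 to 210.1. The lower and upper Ts values fell on both sides of the 2N range. In the 6 comparisons the upper ends of the 95% intervals of Sod2 did not reach 0.585, as the plot of all members' LFCs shows.

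The peroxide-removing enzymes showed no member that passed the adjustment. Cat had LFCs of −0.041 to 0.25 and was a DEG in none, although in ChN CA3 PNs it became one with the library of 15-145 under its own label (0.32, unadjusted p = 0.0241) or left out (0.30, unadjusted p = 0.0406), and in ChN DGCs without Ts mouse 17-153 (0.37, unadjusted p = 0.0412). The Cat intervals reached above 0.585 in CA1 PNs (upper ends 0.729 under ChN and 0.819 under ChP) and in ChN DGCs (0.61). A rise of 0.585 was thus not excluded for Cat in these comparisons. In the other comparisons the Cat intervals ended below 0.585. Prdx2 had LFCs of −0.24 to 0.063 and Txnrd1 of −0.20 to 0.074, and neither was called. The intervals of Prdx2 and Txnrd1 ended below 0.585 in every comparison. Txnrd1 in ChN CA3 PNs became a DEG without Ts mouse 16-490 (−0.28, unadjusted p = 0.0403).

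Gpx1 was higher in Ts in all 6 comparisons by LFC (0.11 to 0.51) and was a DEG in ChN CA1 PNs. There 2N libraries ran from 12.6 through 14.93 to 20.01 CPM and the Ts libraries had 16.52, 18.43, 21.11, 25.93 and 29.0. Of the 5 Ts libraries 3 were above every 2N library. The LFC was 0.51 (SE 0.22, unadjusted p = 0.0317, adjusted p = 1), and the call was lost without Ts mouse 17-153 (0.41, unadjusted p = 0.0974) or 17-157 (0.46, unadjusted p = 0.0695) or without 2N mouse 17-154 (0.48, unadjusted p = 0.061) or 17-21 (0.48, unadjusted p = 0.0576), without both (0.42, unadjusted p = 0.121) and with no filter (0.52, unadjusted p = 0.0547). In ChP CA1 PNs the LFC was 0.39 (SE 0.21, unadjusted p = 0.078), and it became a DEG without Ts mouse 15-140 (0.45, unadjusted p = 0.0412). The Gpx1 interval was 0.05 to 0.978 in ChN and −0.047 to 0.831 in ChP CA1 PNs. Its upper end was 0.672 in ChP CA3 PNs, and 0.942 under ChN and 0.76 under ChP in DGCs. A rise of 0.585 was thus not excluded for Gpx1 in these comparisons. In ChN CA3 PNs the interval ended below 0.585, at 0.478.

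Gpx4 was a DEG in ChP CA3 PNs, where 2N libraries ran from 22.3 through 43.22 to 57.98 CPM and Ts libraries from 43.31 through 52.1 to 58.19. The groups overlapped in all but 1 of 7 Ts libraries. The LFC was 0.29 (SE 0.14, unadjusted p = 0.0474, adjusted p = 0.999), and the call was lost with DESeq2 (0.29, unadjusted p = 0.0583) and on leaving out any of 8 of the 14 libraries, with the smallest LFC without 2N mouse 16-90 (0.19, unadjusted p = 0.156). Those 8 were 2N mice 15-334, 15-336 and 16-90 and Ts mice 14-90, 15-140, 15-245, 16-206 and 17-03. In the 5 other comparisons the Gpx4 LFC lay between −0.082 and 0.10.

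The regulator Nfe2l2 and the Bach1 target Hmox1 were near the limit of detection. In ChP CA1 PNs, Nfe2l2 in 2N ran from 0 through 2.353 to 3.678 CPM and in Ts from 0 through 0.5711 to 1.605, with 1 of 7 2N and 4 of 9 Ts libraries at 0. No Ts library was above the 2N median. The LFC was −1.49 (SE 0.63, unadjusted p = 0.0261, adjusted p = 1), and the call was lost without 2N mouse 15-269 (−1.34, unadjusted p = 0.0626) or 15-336 (−1.33, unadjusted p = 0.0562). Without the CA2-rich libraries, and with filterByExpr, Nfe2l2 did not pass the count filter in this comparison and was not tested. In DGCs the LFCs of Nfe2l2 were 0.84 (SE 0.58, unadjusted p = 0.159) under ChN and 0.93 (SE 0.51, unadjusted p = 0.0759) under ChP, and it became a DEG without Ts mouse 17-173 (1.05, unadjusted p = 0.0344) under ChN and without 2N mouse 14-125 (1.45, unadjusted p = 0.0154) or Ts mouse 15-199 (1.04, unadjusted p = 0.0491) under ChP. Under ChP it was also a DEG with limma-voom (1.27, unadjusted p = 0.0282) and with no filter (0.94, unadjusted p = 0.0467).

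Hmox1 was tested in 5 of the 6 comparisons and was called in none. Its LFCs were 0.57 in ChP CA1 PNs, −0.42 and 0.34 in CA3 PNs and −0.38 and −0.51 in DGCs, with ChN first. At a median of 3.928 CPM in 2N and 2.444 CPM in Ts ChN DGCs, with 1 of 6 libraries at 0 in each, a difference was not detectable at this depth. Over the members outside the triplicated segment the median LFC was 0.072, −0.012 and 0.12 under ChN and 0.026, 0.069 and 0.017 under ChP in CA1 PNs, CA3 PNs and DGCs, and over all genes tested the medians lay between −0.011 and 0.015.

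**Figure D3:**
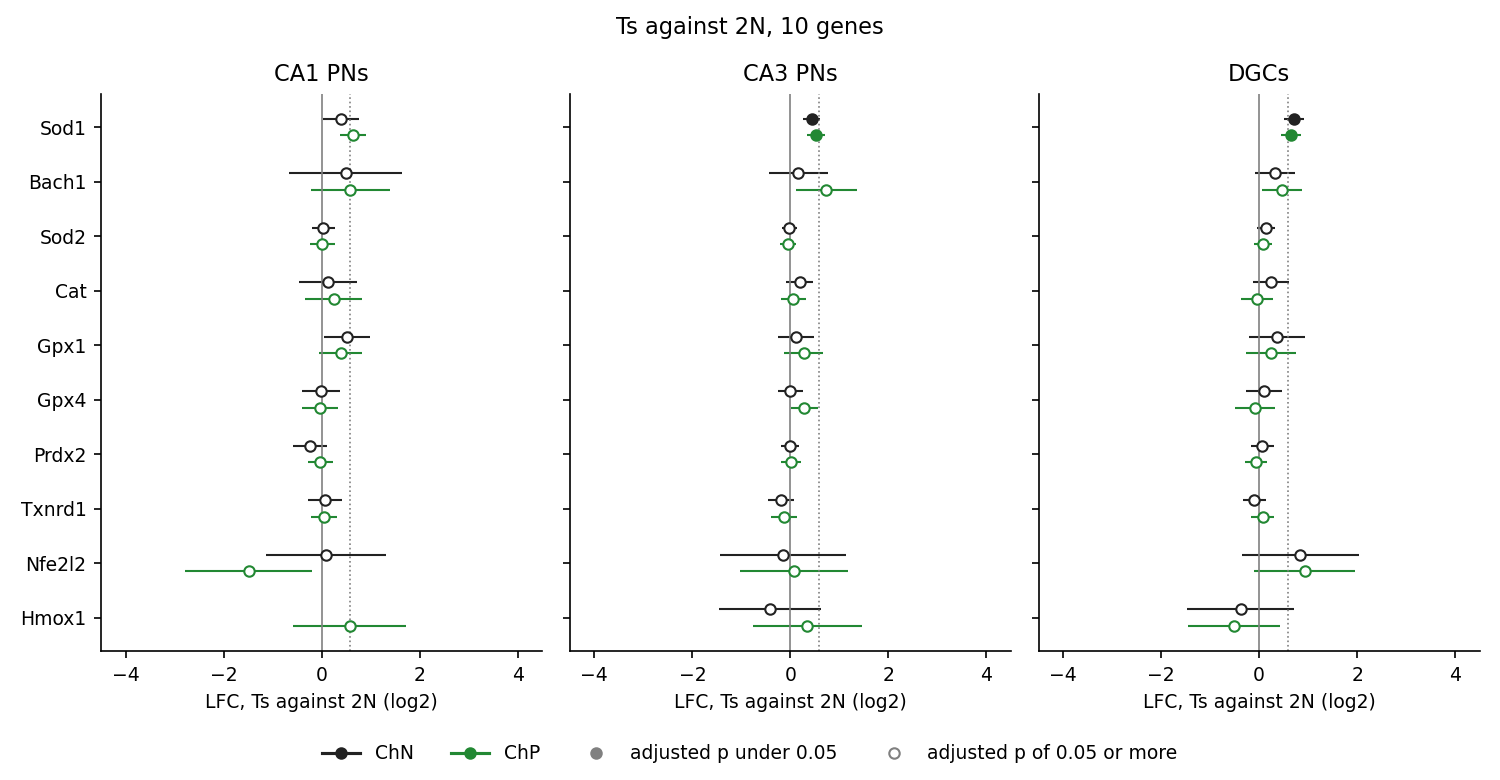
LFC of Ts against 2N with its 95% interval for the 10 genes in CA1 PNs, CA3 PNs and DGCs, ChN in black and ChP in green, filled where the adjusted p is under 0.05, with a dotted line at 0.585. Filled points are those of Sod1 in CA3 PNs and DGCs, and the widest intervals are those of Bach1, Nfe2l2 and Hmox1.

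The balance between Sod1 and its partners was described as a ratio of TPM within each library, with no test. Sod1 over Sod2 had a median of 1.89 in 2N (1.527 to 1.965) and 2.745 in Ts (1.986 to 2.852) ChN CA3 PNs, and all 6 Ts libraries were above every 2N library. In ChN DGCs it was 2.269 in 2N (1.981 to 2.857) and 3.244 in Ts (2.647 to 5.695), with 5 of 6 Ts libraries above every 2N library. In ChN CA1 PNs it was 1.658 (1.242 to 2.637) and 2.287 (1.998 to 2.546), and no Ts library was above every 2N library. Without the CA1 library of 17-154, an omission chosen after seeing the data, the 2N libraries ran from 1.242 to 1.919 and 5 of 5 Ts libraries were above them all.

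Under ChP the medians of Sod1 over Sod2 were 1.48 in 2N and 2.135 in Ts CA1 PNs, 1.78 and 2.559 in CA3 PNs and 1.995 and 3.022 in DGCs. There 8 of 9, 5 of 7 and 7 of 9 Ts libraries were above every 2N library. The ratio of Sod1 to the sum of Gpx1 and Cat separated the genotypes less. Its medians were 5.685 in 2N and 6.609 in Ts CA1 PNs, 3.859 and 4.483 in CA3 PNs and 5.369 and 6.045 in DGCs under ChN, where 0 of 5, 5 of 6 and 2 of 6 Ts libraries were above every 2N library. Under ChP they were 5.119 and 5.393, 4.068 and 5.183, and 3.295 and 6.131, with 2 of 9, 0 of 7 and 5 of 9. Without the CA1 library of 17-154 the ChN CA1 count was 3 of 5, with the highest 2N value at 6.26.

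Sod1 over Prdx2 had medians of 1.872 in 2N and 2.781 in Ts CA1 PNs, 1.875 and 2.597 in CA3 PNs and 1.625 and 2.622 in DGCs under ChN. Under ChP the medians were 1.307 and 2.191, 1.574 and 2.409, and 1.425 and 2.996. Every Ts library of the 6 comparisons was above the 2N median for Sod1 over Sod2 and for Sod1 over Prdx2. For Sod1 over the sum of Gpx1 and Cat this held in ChP CA3 PNs and ChP DGCs but not in the 4 others.

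**Figure D4:**
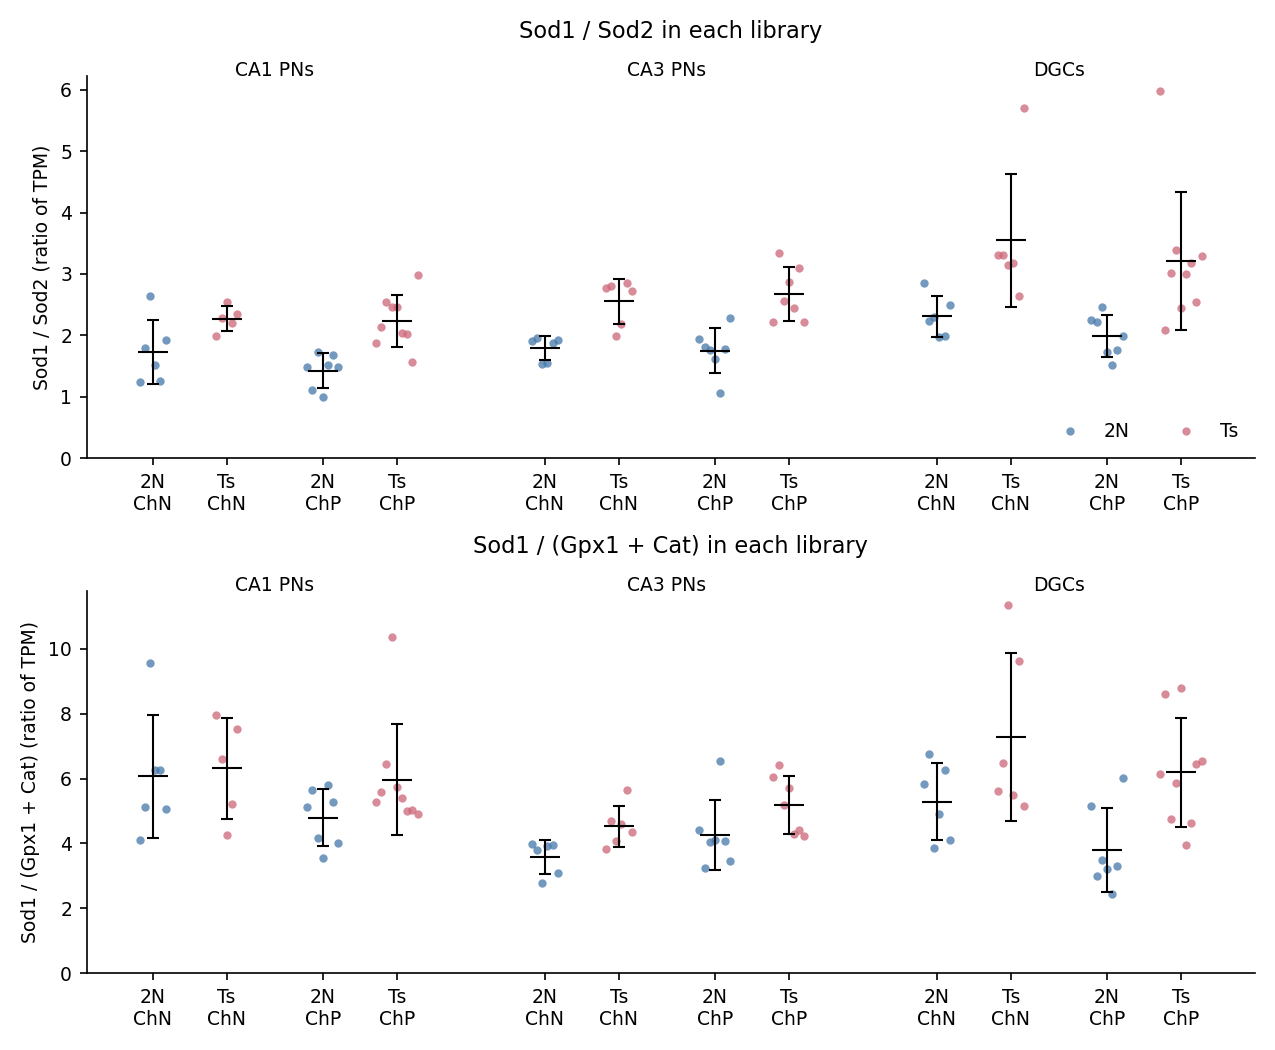
TPM ratio of Sod1 to Sod2 (top) and of Sod1 to the sum of Gpx1 and Cat (bottom) in each library by population, diet and genotype, 2N in blue and Ts in red, with black marks at the mean ± SD. Sod1 over Sod2 is shifted upward in Ts in each pair of groups, with full separation in ChN CA3 PNs, and the lower ratio overlaps in all pairs.

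The triplicated chromosome 16 segment held 302 annotated genes, and those tested other than Sod1 and Bach1 gave the scale for these LFCs. Under ChN the median LFC was 0.40 over 61 tested in CA1 PNs, 0.57 over 64 in CA3 PNs and 0.56 over 65 in DGCs, and 0, 29 and 23 of them rose after adjustment. The ChN CA1 values include the 2N library of mouse 17-154, whose mean over triplicated genes (6.23 on the log2 CPM scale) was at the Ts level. No such median was taken without that library. Under ChP the medians were 0.46 over 70, 0.52 over 66 and 0.60 over 69, and 6, 24 and 26 rose. The Sod1 LFC was below that median in CA3 PNs of ChN mice (0.43). It was above the median in DGCs under both diets and in CA1 PNs of ChP mice (0.64). In CA1 PNs of ChN mice (0.39) and CA3 PNs of ChP mice it was close to the median. The interval of the Sod1 LFC contained the median in every comparison. It ran from 0.26 to 0.61 in ChN CA3 PNs and from 0.51 to 0.91 in ChN DGCs. Under ChP it ran from 0.45 to 0.85 in DGCs and from 0.37 to 0.91 in CA1 PNs. A departure of Sod1 from the other triplicated genes was therefore not shown in any population.

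The nearest tested genes on either side of Sod1 were Tiam1, which codes for an activator of the GTPase Rac, and Scaf4, an antisense neighbour that codes for an RNA-binding protein. Tiam1 rose in DGCs (0.54, adjusted p = 1.21e-09 under ChN, and 0.60, adjusted p = 8.13e-12 under ChP), while its LFC was 0.14 and 0.10 in CA1 PNs and 0.56 and 0.90 in CA3 PNs without passing the adjustment. Scaf4 rose in CA3 PNs (0.59, adjusted p = 0.000561 under ChN, and 0.51, adjusted p = 0.0158 under ChP), and its LFC was 0.38 and 0.44 in DGCs (adjusted p = 0.123 and 0.0615). In CA1 PNs the LFC of Scaf4 was 0.365 under ChN and 0.427 under ChP (edgeR, unadjusted p = 0.0346 and 0.00141), without passing the adjustment. By unadjusted p Scaf4 was thus a DEG in CA1 PNs and DGCs as well. On the distal side of Bach1, Grik1, a kainate receptor subunit, had LFCs of 0.06 and 0.03 in CA1 PNs, 0.587 and 0.435 in CA3 PNs and 1.005 and 1.718 in DGCs, with ChN first, of which the last was a DEG (unadjusted p = 0.0181, adjusted p = 0.465). On the proximal side, Cct8, a chaperonin subunit, was the nearest tested gene in ChN CA1 PNs, at 0.55 (unadjusted p = 0.00103, adjusted p = 1). In the 5 other comparisons it was B130034C11Rik, at −0.07 in ChP CA1 PNs, 0.41 and 0.41 in CA3 PNs and −0.16 and 0.75 in DGCs, called in none.

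The other antioxidant and Nrf2 or Bach1 pathway genes were 86 in number. Under ChN, 1 higher and 1 lower DEG were found among 58 tested in CA1 PNs, 3 and 4 among 64 in CA3 PNs and 0 and 2 among 58 in DGCs. Under ChP the counts were 1 and 0 of 66, 1 and 0 of 64, and 1 and 3 of 62. Over all genes tested the DEGs of either direction were 3.77%, 9.2% and 8.5% under ChN and 3.6%, 4.99% and 7.6% under ChP. Bach2, a relative of Bach1, was the gene that passed the adjustment, in ChN CA3 PNs (0.63, SE 0.16, adjusted p = 0.0395).

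In CA1 PNs the DEGs were Gss, glutathione synthetase (0.96, unadjusted p = 0.0316), and Gstm1, a glutathione transferase (−0.69, unadjusted p = 0.0253), under ChN, and Glrx5, a mitochondrial glutaredoxin (0.53, unadjusted p = 0.0207), under ChP. In CA3 PNs, Selenop, a selenium carrier (−0.50, unadjusted p = 0.0142), and Glrx2 (0.34, unadjusted p = 0.0158) were called beside Bach2 under ChN, and Slc7a11, the cystine transporter, under ChP (1.06, unadjusted p = 0.00257, adjusted p = 0.368). In DGCs, Pgd of the pentose phosphate pathway (−0.54, unadjusted p = 0.0294) and the ferritin heavy chain Fth1 (−0.14, unadjusted p = 0.0427) were called under ChN, and Gss (−0.60, unadjusted p = 0.00323, adjusted p = 0.217) and Gstm1 (−0.38, unadjusted p = 0.0378) under ChP. Gss was thus higher in CA1 PNs of ChN mice and lower in DGCs of ChP mice by unadjusted p.

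Among the heme, iron and other Nrf2 or Bach1 targets, 13 to 14 were tested, none was a higher DEG in any of the 6 comparisons, and 0 to 2 were lower. Of the selenoproteins, to which Gpx1, Gpx4 and Txnrd1 belong, 15 to 16 of the 20 others were tested, with 0 higher DEGs, and 2 lower DEGs in ChN CA3 PNs. Of all genes tested, 3.6% to 9.2% were DEGs of either direction in the 6 comparisons, with the highest share in ChN CA3 PNs. Lists this short would hold few DEGs at those shares. Ccs, the copper chaperone of Sod1, had LFCs of 0.12, 0.19 and −0.086 under ChN and 0.058, 0.33 and 0.34 under ChP in CA1 PNs, CA3 PNs and DGCs, and was called in none.

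No member passed the adjustment between the maternal diets. The comparison of ChP with ChN within genotype addresses whether supplementation in early life left a mark on these genes in the adult. Among the 10 members, 0 were DEGs in CA1 PNs of 2N or Ts mice, 1 in CA3 PNs of 2N, and 0 in CA3 PNs of Ts and in DGCs of either genotype. Of all genes 3.27%, 3.05%, 4.9%, 4.19%, 5.82% and 3.81% were DEGs, in the order of CA1, CA3 and DGCs with 2N first. The DEG was Gpx4, at −0.30 (SE 0.14, unadjusted p = 0.0283, adjusted p = 0.98), where ChN 2N libraries ran from 35.93 through 52.8 to 62.25 CPM and ChP 2N libraries from 22.3 through 43.22 to 57.98. The ranges overlapped, and the call was lost without 2N mouse 17-154 (−0.28, unadjusted p = 0.0599), 17-172 (−0.25, unadjusted p = 0.0882), 15-334 (−0.27, unadjusted p = 0.0582) or 16-90 (−0.21, unadjusted p = 0.122).

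For Sod1 the diet LFC was −0.16 in 2N and 0.051 in Ts CA1 PNs, 0.042 and 0.15 in CA3 PNs and 0.005 and −0.051 in DGCs. It was a DEG in none, and in Ts CA3 PNs it became one without mouse 17-03 (0.19, unadjusted p = 0.0376). Prdx2 in Ts CA1 PNs had an LFC of 0.27 (unadjusted p = 0.0704), which became a DEG without Ts mouse 16-357 (0.33, unadjusted p = 0.0367), 15-140 (0.31, unadjusted p = 0.0391) or 15-245 (0.30, unadjusted p = 0.0494). Cat in Ts DGCs had −0.26 (unadjusted p = 0.107), which became a DEG without Ts mouse 17-153 (−0.38, unadjusted p = 0.0214) or 17-173 (−0.33, unadjusted p = 0.0493). The ChN and ChP mice were different animals from different dams, so the diet and any difference in handling of the libraries cannot be told apart.

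The test of whether the Ts against 2N difference itself differed between diets (the interaction) called 0 of 10 members in each population, against 3.22%, 4.87% and 3.97% of all genes in CA1 PNs, CA3 PNs and DGCs. For Sod1 the difference of LFCs, ChP less ChN, was 0.21 in CA1 PNs (95% interval −0.22 to 0.65), 0.11 in CA3 PNs (−0.15 to 0.36) and −0.056 in DGCs (−0.34 to 0.23). For Bach1 it was 0.051, 0.58 and 0.15. Differences between diets within the Sod1 intervals were not excluded with these numbers of mice. The interaction became a DEG for Nfe2l2 in CA1 PNs without 2N mouse 15-334 (−1.81, unadjusted p = 0.0471) and for Gpx4 in CA3 PNs without 2N mouse 14-125 (0.39, unadjusted p = 0.0466).

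Between populations, the Sod1 LFC was smaller in CA1 PNs than in DGCs under ChN (difference −0.31, unadjusted p = 0.0732), the CA3 value was also smaller than that of DGCs (−0.29, unadjusted p = 0.0829), and the CA1 less CA3 difference was −0.024. None was called, but the first was a DEG without 2N mouse 15-147 (−0.39, unadjusted p = 0.0426) or 17-21 (−0.40, unadjusted p = 0.0275) and the second without 17-154 (−0.29, unadjusted p = 0.0486). Without 17-154 the first was −0.05 (unadjusted p = 0.738), so its size rested on that mouse. Under ChP the differences of Sod1 were 0.11 for CA1 less CA3, −0.003 for CA1 less DGCs and −0.11 for CA3 less DGCs. Under ChN 0 of 10 members were called in each of the 3 contrasts, against 4.22%, 5.51% and 5.18% of all genes. Under ChP 0, 1 and 0 were called, against 4.27%, 4.95% and 4.42%. The 1 was Nfe2l2, whose Ts against 2N LFC was lower in CA1 PNs than in DGCs by −2.43 (SE 0.89, unadjusted p = 0.00772, adjusted p = 0.985). Its CA1 less CA3 difference under ChP became a DEG without Ts mouse 17-03 (−1.95, unadjusted p = 0.0396).

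DGCs differed from each pyramidal population in most of the 10 members, while CA1 and CA3 PNs differed from each other in 2. In 2N mice on ChN, 8 of 10 members passed the adjustment in the contrast of CA3 PNs with DGCs, of which 6 had their higher level in CA3 PNs. Of the 10, 6 passed when CA1 PNs were set against DGCs, 3 in each direction, and 2 passed when the pyramidal populations were set against each other, both with the lower level in CA1 PNs. The counts under ChP were the same, although the pair called between CA1 and CA3 PNs was Cat and Gpx1 under ChN and Cat and Sod1 under ChP. Such differences were common across the transcriptome, with 43.7%, 34.3% and 23.3% of all genes passing under ChN and 40.4%, 31.8% and 22.9% under ChP.

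Bach1 was most abundant in DGCs. In 2N ChN libraries it ran from 14.23 to 22.05 CPM in DGCs, from 3.266 to 11.38 in CA3 PNs and from 0 to 8.443 in CA1 PNs. The DGC range did not overlap either of the others. The LFC was −1.34 (SE 0.32, adjusted p = 0.000666) for CA3 PNs against DGCs and −2.25 (SE 0.38, adjusted p = 1.02e-05) for CA1 PNs against DGCs, and under ChP it was −1.52 (adjusted p = 0.000402) and −2.29 (adjusted p = 1.09e-05). Between CA1 and CA3 PNs of ChN mice it was −0.91 (adjusted p = 0.111), which passed without mouse 17-154 (−1.46, adjusted p = 0.0312) and with limma-voom (−1.30, adjusted p = 0.0436).

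Cat was most abundant in CA3 PNs. In 2N ChN mice it ran from 34.3 through 51.8 to 65.79 CPM in CA3 PNs, from 21.8 through 31.99 to 38.86 in DGCs and from 10.03 through 22.88 to 27.79 in CA1 PNs. CA1 and CA3 PNs did not overlap. The CA1 against CA3 LFC was −1.22 (SE 0.20, adjusted p = 9.48e-06) under ChN and −1.54 (SE 0.19, adjusted p = 6.23e-09) under ChP. The CA3 against DGC LFC was 0.68 (adjusted p = 0.0031) and 0.66 (adjusted p = 0.00209). CA1 PNs were below DGCs by an LFC of −0.54 under ChN (adjusted p = 0.0493), a call lost without mouse 17-154 (−0.62, adjusted p = 0.0602), 17-172 (−0.32, adjusted p = 0.284), 17-21 (−0.43, adjusted p = 0.153) or 17-56 (−0.56, adjusted p = 0.0547), without the CA2-rich libraries (−0.50, adjusted p = 0.0688), with DESeq2 (−0.54, adjusted p = 0.0567) and with limma-voom (−0.56, adjusted p = 0.0877), and by −0.88 under ChP (adjusted p = 0.000506).

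Gpx1 was also higher in CA3 PNs than in DGCs, with 20.08 through 21.02 to 31.12 CPM against 6.467 through 8.214 to 15.68 in 2N ChN mice, without overlap. The LFC was 1.27 (SE 0.23, adjusted p = 1.88e-05) under ChN and 0.89 (SE 0.26, adjusted p = 0.0056) under ChP. Gpx1 was lower in CA1 than in CA3 PNs under ChN (−0.66, adjusted p = 0.0231), a call lost without mouse 17-154 (−0.52, adjusted p = 0.119) or 17-172 (−0.60, adjusted p = 0.0879). Between CA1 PNs and DGCs it was 0.61 under ChN (adjusted p = 0.0625), and passed without 17-154 (0.85, adjusted p = 0.0164) and with filterByExpr (0.60, adjusted p = 0.047). Under ChP that LFC was 0.48 (adjusted p = 0.206), and passed without 15-336 (0.64, adjusted p = 0.0407).

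Gpx4 was higher in CA3 PNs than in DGCs, by an LFC of 1.01 (SE 0.17, adjusted p = 5.15e-06) under ChN and 0.57 (SE 0.22, adjusted p = 0.0316) under ChP. The ChP call was lost with the mouse as a block (0.62, adjusted p = 0.0583), with DESeq2 (0.54, adjusted p = 0.0527) and without mouse 14-125 (0.35, adjusted p = 0.229), 15-269 (0.49, adjusted p = 0.128), 15-296 (0.46, adjusted p = 0.119) or 16-273 (0.52, adjusted p = 0.0883). In CA1 PNs against DGCs Gpx4 had 0.59 (adjusted p = 0.00931) under ChN, lost without mouse 15-145 (0.48, adjusted p = 0.0571) or 17-154 (0.49, adjusted p = 0.0641). Under ChP it had 0.67 (adjusted p = 0.0175), lost with the mouse as a block (0.66, adjusted p = 0.0555), without 15-269 (0.66, adjusted p = 0.0516) or 16-273 (0.57, adjusted p = 0.0831), and without the CA2-rich libraries (0.50, adjusted p = 0.0978). Between CA1 and CA3 PNs of ChN mice it had −0.42 (adjusted p = 0.0548), which passed without 17-21 (−0.47, adjusted p = 0.0355), without the CA2-rich libraries (−0.48, adjusted p = 0.0237) and with limma-voom (−0.46, adjusted p = 0.0331).

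Sod2 and Prdx2 were higher in both pyramidal populations than in DGCs. Sod2 ran from 113.8 through 123.0 to 141.3 CPM in 2N ChN DGCs, below all CA1 (182.7 to 211.1) and CA3 (179.6 to 192.7) libraries. Its LFC against DGCs was 0.62 (SE 0.095, adjusted p = 1.98e-06) in CA1 and 0.55 (SE 0.094, adjusted p = 6.88e-06) in CA3 PNs, and 0.68 and 0.61 under ChP (adjusted p = 3.15e-06 and 1.32e-05). Prdx2 had 0.43 (adjusted p = 0.0116) in CA1 and 0.60 (adjusted p = 3e-04) in CA3 PNs under ChN and 0.35 (adjusted p = 0.0298) and 0.51 (adjusted p = 0.000901) under ChP. The CA1 calls of Prdx2 were lost without 17-21 under ChN (0.26, adjusted p = 0.125) and, under ChP, without the CA2-rich libraries (0.21, adjusted p = 0.24) or mouse 15-334 (0.36, adjusted p = 0.0622), 15-336 (0.30, adjusted p = 0.0769), 16-273 (0.34, adjusted p = 0.0545) or 16-90 (0.35, adjusted p = 0.0522).

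Txnrd1 was the enzyme that was higher in DGCs, with 71.63 through 80.74 to 90.04 CPM in 2N ChN mice against 40.83 through 49.09 to 65.05 in CA3 PNs. These ranges did not overlap, and the LFC of CA3 PNs against DGCs was −0.71 (SE 0.14, adjusted p = 6.42e-05) under ChN and −0.47 (SE 0.13, adjusted p = 0.00421) under ChP. In CA1 PNs it was −0.71 (adjusted p = 0.000146) and −0.58 (adjusted p = 0.000839). Sod1 itself was higher in CA3 PNs than in DGCs by 0.45 (adjusted p = 0.00804) under ChN and 0.49 (adjusted p = 0.00139) under ChP.

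Against CA3 PNs, Sod1 in CA1 PNs had an LFC of −0.16 (adjusted p = 0.471) under ChN, or −0.41 (adjusted p = 0.0145) without mouse 17-154, and −0.38 (adjusted p = 0.0174) under ChP. The ChP call of Sod1 was lost without mouse 14-125, 15-269, 15-296 or 15-334 (adjusted p = 0.0549 to 0.0852). Against DGCs it had 0.29 (adjusted p = 0.113) under ChN and passed without 17-21 (0.37, adjusted p = 0.0476) and without the CA2-rich libraries (0.34, adjusted p = 0.0481). With libraries scaled by their totals in place of TMM, which moved the median of all genes by −0.20 under ChN and −0.22 under ChP for CA3 PNs against DGCs, the Sod1 difference between those populations was 0.26 (adjusted p = 0.13 and 0.0859), and the Prdx2 difference under ChP was 0.29 (adjusted p = 0.0582). With the same scaling the Gpx4 difference under ChP was 0.35 (adjusted p = 0.177), Prdx2 in CA1 PNs against DGCs had 0.29 under ChN (adjusted p = 0.0902) and 0.23 under ChP (adjusted p = 0.178), and Sod1 in CA1 against CA3 PNs under ChP had −0.28 (adjusted p = 0.0977). All were past the threshold with TMM.

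Hmox1 and Nfe2l2 had negative LFCs in both pyramidal populations against DGCs and passed the adjustment in none. Hmox1 in ChP CA3 PNs against DGCs had −1.38 (adjusted p = 0.0522), which passed with the mouse as a block (−1.51, adjusted p = 0.0354), DESeq2 (−1.48, adjusted p = 0.0449), limma-voom (−1.50, adjusted p = 0.0345) or library totals (−1.60, adjusted p = 0.0227), without the CA2-rich libraries (−1.38, adjusted p = 0.0405) and without 15-296 (−1.62, adjusted p = 0.0341) or 16-273 (−1.62, adjusted p = 0.0415). For CA1 PNs against DGCs, Hmox1 passed without 17-56 under ChN (−1.73, adjusted p = 0.0423) and without 15-296 (−1.73, adjusted p = 0.0393) or with library totals (−1.57, adjusted p = 0.0479) under ChP. Nfe2l2 in ChN CA3 PNs against DGCs had −1.16 (adjusted p = 0.112) and passed without 17-21 (−1.91, adjusted p = 0.0132).

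**Figure D5:**
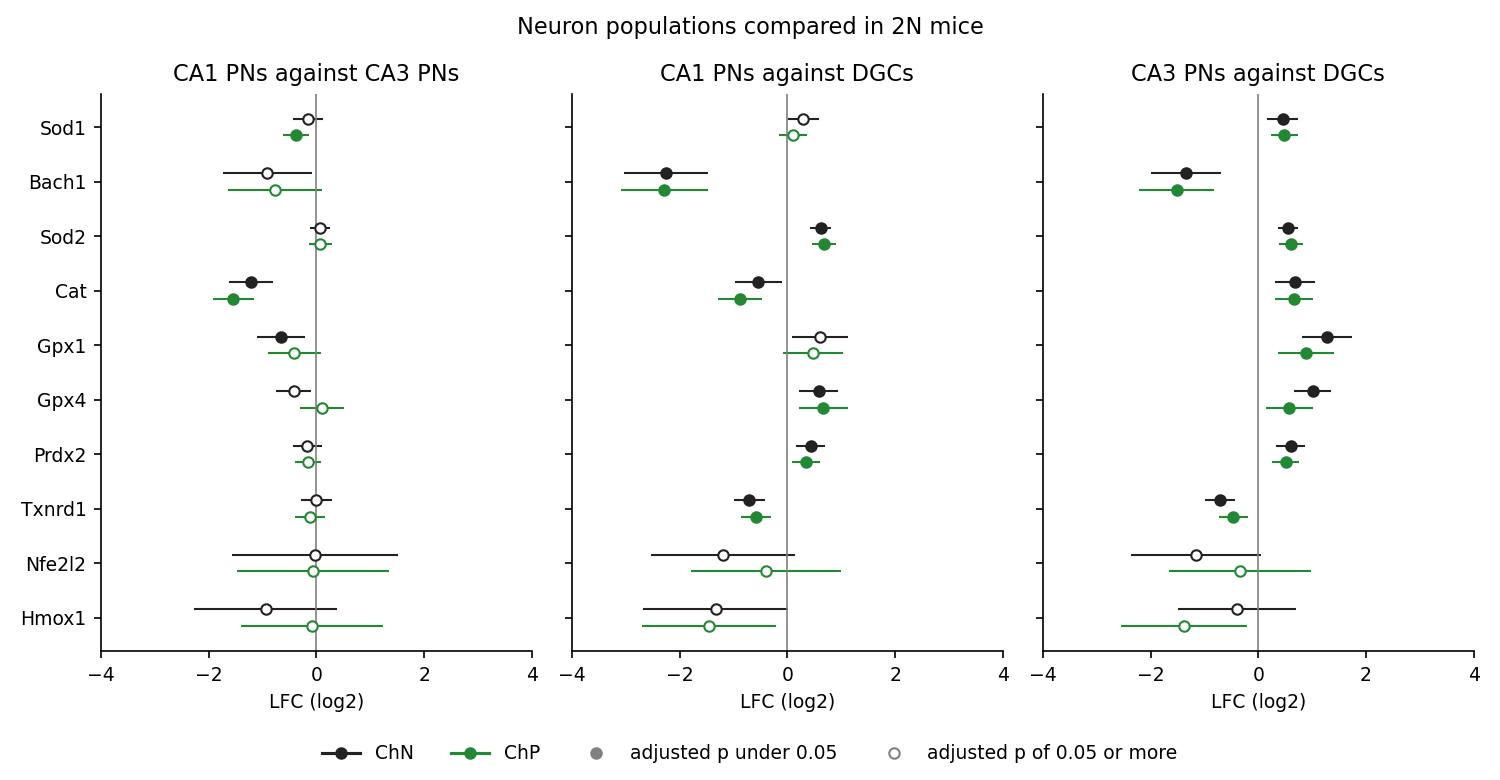
LFC between populations in 2N mice with its 95% interval for the 10 genes, as CA1 PNs against CA3 PNs, CA1 PNs against DGCs and CA3 PNs against DGCs, ChN in black and ChP in green, filled where the adjusted p is under 0.05. Bach1 and Txnrd1 lie left of 0 against DGCs, Cat lies left of 0 in CA1 PNs against both others and right of 0 in CA3 PNs against DGCs, and the diets give overlapping intervals.

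Markers of other cells moved with some of these differences. The 6 astrocyte markers summed to a median of 562.4 CPM in CA1 (428 to 647.3), 2344 in CA3 (1917 to 2827) and 785.9 in DGC (707.5 to 1016) libraries of 2N ChN mice, so CA3 libraries were highest, as they were for Cat and Gpx1. Much of that sum was Slc1a2, with medians of 488, 2100 and 664 CPM over all CA1, CA3 and DGC libraries of both genotypes and diets. In the same order Gfap had 10.4, 20.7 and 17.9 CPM, and Slc1a3 had 80.0, 99.2 and 107 CPM. Slc1a3 was thus highest in DGC libraries, and the other astrocyte markers were highest in CA3 libraries. The 6 oligodendrocyte markers had sums with medians of 180.6, 350.9 and 176.7 CPM in 2N ChN mice. Over both genotypes and diets each of the 6 was highest in CA3 libraries. Of the 5 erythroid markers, listed because red cells hold much catalase and peroxiredoxin, 4 or 5 were at 0 in every 2N ChN library of a population, and the sum reached at most 1.038 CPM. The part of astrocytes and oligodendrocytes in the population differences was not tested. Between genotypes within ChN, the astrocyte sums had medians of 562.4 in 2N and 545.8 in Ts CA1 PNs, 2344 and 2308 in CA3 PNs and 785.9 and 789.1 in DGCs. The 6 inhibitory neuron markers differed more. Their sums had medians of 259.8 CPM in 2N (137.1 to 355.6) and 153.1 in Ts (123.3 to 167.6) ChN CA3 PNs. In ChP DGCs the direction was opposite, with 206.1 in 2N (166.8 to 248.5) and 274.4 in Ts (219.2 to 318.8). The medians were 210.1 in 2N and 173.3 in Ts ChP CA3 PNs and 224.4 and 205.0 in ChN DGCs. Sod1 rose in each of these comparisons. In ChP DGCs the astrocyte sums also had medians of 748.4 in 2N and 920.9 in Ts. The part of these cells in the genotype differences was not tested.

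Among the pathway genes beyond the members, calls between populations were set against those of all genes. Of 66 tested under ChN, 24 passed toward CA3 PNs and 3 toward DGCs in that contrast, 16 toward CA1 PNs and 4 toward DGCs in the second, and 5 toward CA1 and 13 toward CA3 PNs in the last. Under ChP the counts were 19 and 3, 18 and 4, and 2 and 10 of 65. Of all genes 43.7%, 34.3% and 23.3% passed under ChN and 40.4%, 31.8% and 22.9% under ChP, in the same order. Against diet within genotype, 1 of 67, 0 of 67, 4 of 68, 2 of 68, 5 of 66 and 3 of 66 were DEGs, in the order of CA1, CA3 and DGCs with 2N first, against 3.27%, 3.05%, 4.9%, 4.19%, 5.82% and 3.81% of all genes. The diet DEG of smallest p was Gss in DGCs of 2N mice (0.74, unadjusted p = 0.000929, adjusted p = 0.677), and the cystine transporter Slc7a11 had −0.96 in CA3 PNs of 2N mice (unadjusted p = 0.00545).

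The other named diet DEGs were Ftl1, the ferritin light chain, in 2N CA1 PNs (0.64, unadjusted p = 0.00667), Selenof and Selenom in 2N CA3 PNs (−0.30 and 0.35), and Maob, a monoamine oxidase, and Selenot in Ts CA3 PNs (1.42 and −0.21). In DGCs they were Selenom and the thioredoxin inhibitor Txnip in 2N (0.46 and 1.86) and the mitochondrial reductase Txnrd2, the glutathione transferase Gsta4 and the iron exporter Slc40a1 in Ts (0.96, 1.09 and 1.0). None passed the adjustment.

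The genes whose group means most resembled those of each member were found by Pearson's r over the 12 means of log2 CPM by population, genotype and diet, among 9823 genes with a mean of at least 3. These are descriptions, and the 12 means share mice and libraries. For Sod1 they were Cct8 (0.975), Arid1b (0.956) and Ttc3 (0.949), of which Cct8 and Ttc3 are in the triplicated segment of chromosome 16 and Arid1b is on chromosome 17, where Ts mice carry their other extra stretch. For Bach1 they were Nudt13 (0.978), Pxylp1 (0.976) and St6galnac3 (0.976). Sod2 was most like Ptprn2, Cacna2d3 and Sdhb (0.987 for the last), Cat like Mprip (0.984), Ppfia4 and Dennd11, Gpx4 like Map1lc3a (0.982), Acsbg1 and Scamp5, and Prdx2 like Ywhae (0.992), Atp5mj and Rabac1. Gpx1 was most like Trappc12 (0.971), the triplicated Synj1 (0.964) and Evi5, and Txnrd1 like Ctdspl2 (0.99), Ocln and Tbcel.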

How the data were processed

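Male Ts and 2N mice gave 81 LCM libraries of CA1 PNs, CA3 PNs and DGCs. Per the labels and the study's methods, the authors made stranded total RNA libraries (SMARTer Pico v3), sequenced them on a NovaSeq 6000, trimmed reads with Trimmomatic 0.39, checked them with FastQC 0.11.9 and Picard 2.26.2, and aligned and quantified them with STAR and RSEM on GRCm39. The deposited expected counts per gene (2.82% of values above 0 were not whole) were rounded, and the deposited TPM per gene were used as given for levels between genes. The annotation release and strand setting were not given in the sources used here. Of 57010 gene identifiers, 56310 matched a symbol in Gencode vM39.

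Every gene with more than 0.1 CPM in 10 or more of the libraries fitted was tested with edgeR 4.0.16 (TMM, quasi-likelihood test, two-sided, R 4.3.3), without covariates, with Benjamini-Hochberg adjustment over all genes tested. Printed p-values are from that test, except where DESeq2 or limma-voom is named, which gave their own. Ts was compared with 2N within population and diet, diets and their interaction within population, and populations within 2N of each diet. Separate mice are the replicates of a group. Alternatives were DESeq2 1.42.0, limma-voom 3.58.1, library totals, filterByExpr, no filter, both diets in 1 fit, the label of the 15-145 CA3 library, the mouse as a block, and each library left out in turn. Mouse numbers in the labels pair libraries across populations, and residuals of the same mouse correlated with a median r of 0.062 to 0.114 over genes, against −0.017 to −0.008 for different mice. No pair of libraries of 1 group agreed within sampling noise (chi-square per degree of freedom 1.6 to 18.86 over 241 pairs). The fits were tested on simulated counts. Named genes were the members, every pathway gene past the adjustment, the 3 of smallest p per genotype or diet comparison, the nearest tested neighbours of Sod1 and Bach1, and the 3 genes of highest r with each member. Depth limits Bach1, Nfe2l2 and Hmox1 most, and intervals cover the spread between libraries. The members and the lists were chosen with earlier results of these data known. The study's own covariates were not used here. A pathway gene that the naming rule covers is not reported here.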

Additional observations from a re-analysis of the deposited data

Results flagged for a closer look

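Of 120 sets of libraries (10 genes in 12 groups), 12 had 1 library whose gap to the next was a large share of the group's range by Dixon's test, where about 1 in 20, or 6, are flagged by chance. Sod1 in 2N ChN CA1 PNs stood at 152.7 CPM in mouse 17-154, above the next at 91.3. The mean of the other triplicated genes in that library was 6.23 on the log2 CPM scale. The cause was not tested.

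For the other enzymes, Gpx1 in 2N ChP CA3 PNs was low in mouse 15-336 (4.336 CPM, next 18.49), Sod2 was high in ChP Ts CA1 PNs of mouse 15-36 (305.3 CPM, next 229.9) and low in ChN Ts DGCs of mouse 16-490 (122.8 CPM, next 139.6). Prdx2 in CA3 PNs was low in 2N ChP mouse 16-273 (93.16 CPM, next 114.3) and in Ts ChN mouse 16-357 (93.51 CPM, next 109.9). Txnrd1 was low in ChN Ts CA1 PNs of mouse 17-173 (41.35 CPM, next 55.84) and high in ChN Ts CA3 PNs of mouse 16-490 (59.47 CPM, next 44.53).

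Among the genes with few reads, Hmox1 was high in 2N ChN CA3 PNs of mouse 17-56 (6.533 CPM, next 3.144). Nfe2l2 was high in ChN Ts CA1 PNs of mouse 17-153 (4.394 CPM, next 1.229), in 2N ChN CA3 PNs of mouse 17-21 (5.117 CPM, next 1.633) and in ChP Ts DGCs of mouse 15-36 (16.35 CPM, next 9.112).

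The Ts against 2N effect on Nfe2l2 under ChP differed between populations by the test of the difference itself, CA1 PNs less DGCs, at −2.43 (unadjusted p = 0.00772), and did not pass the adjustment (adjusted p = 0.985, edgeR).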

How the results depend on the processing

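Of 5969 recomputed gene values over 607 combinations of comparison and setting, 5853 kept their side of the threshold, 70 lost their call, 46 gained one and 0 called values reversed. The 5853 include 361 uncalled values that changed sign. Sod1 kept its adjusted call in DGCs under all alternatives run and in CA3 PNs under all but the 15-145 label. For Ts against 2N in ChN CA1 PNs, DEGs among the members fell from 2 to 1 with no filter and without the CA1 libraries of 17-154 and 17-21. In ChP CA1 PNs they fell from 2 to 1 with filterByExpr and without the CA2-rich libraries, settings in which Nfe2l2 was not tested. In that comparison the number that passed the adjustment rose from 0 to 1 with DESeq2, with no filter and without the CA2-rich libraries. In ChN CA3 PNs with the 15-145 library as Ts, DEGs went from 1 to 2 and passes from 1 to 0. Diet DEGs in Ts CA1 PNs went from 0 to 1 with limma-voom (Nfe2l2). Members past the adjustment between CA1 and CA3 PNs of 2N mice went from 2 to 4 under ChN with limma-voom and from 2 to 1 under ChP with library totals. The 2 omissions of several CA1 libraries were chosen after seeing the data. With the mouse as a replicate block, the pairing changed the calls of Gpx4 under ChP (CA1 PNs against DGCs 0.66, adjusted p = 0.0555, and CA3 PNs against DGCs 0.62, adjusted p = 0.0583) and of Hmox1 (CA3 PNs against DGCs −1.51, adjusted p = 0.0354) and no other member's call.

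Leaving out 1 library or mouse at a time, the Sod1 LFC in ChN CA1 PNs ran from 0.35 to 0.60. The number of member DEGs for Ts against 2N ran from 0 to 2 in ChN and 1 to 3 in ChP CA1 PNs, 1 to 2 in ChN and 1 to 3 in ChP CA3 PNs, and 1 to 2 in ChN and 1 to 3 in ChP DGCs, and the number past the adjustment in ChP CA1 PNs from 0 to 1. It ran from 0 to 1 for diet in Ts CA1 PNs, 2N CA3 PNs, Ts CA3 PNs and Ts DGCs, for the interaction in CA1 and CA3 PNs, and for the difference of the genotype effect between CA1 and CA3 PNs under ChP, and between DGCs and either pyramidal population under ChN. The number past the adjustment between CA1 and CA3 PNs ran from 1 to 3 under ChN and 1 to 2 under ChP. The causes were not tested, and low counts limit Bach1, Nfe2l2 and Hmox1.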
